A study of Mus musculus with 8 samples.

Results

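Intervals of Prdm4 binding that lie far from the start of any protein-coding transcript are described here. They are 235 of the 900 intervals of the mouse genome in which all 4 anti-GFP ChIP samples of the study held a peak, and of the 2343 merged intervals of any sample. The members were chosen by the peak calls themselves: overlapping peaks of the 4 samples were merged, and a merged interval was kept if it held a peak of each sample and its centre lay over 50 kb from the nearest transcription start site (TSS) of a protein-coding transcript. Of the other shared intervals, 394 lay 5 to 50 kb from a TSS and 271 within 5 kb. The presence of peaks and the distance from a TSS are therefore not results.

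The study examined where Prdm4 binds in the genome of mouse embryonic stem cells (ESCs). CCE ESCs, a line of 129/Sv background, stably expressed full-length Prdm4 fused to EGFP from a plasmid in which the strong and broadly active CAG promoter, built on chicken beta-actin sequence, drives the transgene, so that these cells hold tagged Prdm4 on top of their own. Chromatin of clones B1 and B6 was precipitated with a monoclonal antibody to GFP in 2 experiments per clone, giving replicates 1 and 2 (B1) and replicates 3 and 4 (B6). Each had a control with mouse IgG from the same clone (4 samples), against which peaks were called and whose own values were not analysed here. All samples carry the transgene, no condition varies other than the clone, and the 2 clones stand for the line. Whether the 2 experiments of a clone were separate cultures is not stated, so the spread between them may be technical.

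Prdm4 belongs to the Prdm family, whose members carry a PR domain related to the SET domain of histone methyltransferases together with zinc fingers. The zinc fingers of Prdm4 contact DNA at a tripartite motif made of a G run, a short CT element and the block GAAAC. Binding sites far from genes are common for sequence-specific factors. Some act as enhancers over long ranges, and others lie in copies of transposable elements that carry a motif to many places at once.

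The sequence around the motif shows what many of these intervals had in common. The motif was searched on both strands as GGGNCTNGAAAC, with 1 to 4 bases allowed between GGG and CT. GAAAC had to be complete, and up to 2 mismatches were allowed in GGG and CT. These forms overlap each other only in that each GAAAC was counted once, with its best spacer. The lines below give, 5′ to 3′ on the strand of the motif, the best match in capitals with 15 bases on each side, from the mm9 genome. The first group are high-scoring members that belong to 1 large family of similar sequence, described further on.
1600021P15Rik/Hrasls, chr16:29013182-29013226, plus strand: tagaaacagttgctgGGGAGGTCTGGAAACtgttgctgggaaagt
Slc16a9/Fam13c, chr10:69822317-69822361, plus strand: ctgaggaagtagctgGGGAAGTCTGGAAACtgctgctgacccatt
B3galnt1/Rpl32-ps, chr3:69462261-69462305, plus strand: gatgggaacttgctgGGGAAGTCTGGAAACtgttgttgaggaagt
Dctd/Odz3, chr8:49263414-49263455, minus strand: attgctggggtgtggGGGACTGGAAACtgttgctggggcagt
Opa1/Gm1968, chr16:29684817-29684859, plus strand: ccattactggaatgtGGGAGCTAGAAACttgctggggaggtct
These 5 matches were exact, and the bases after GAAAC resembled each other as well.

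The next lines show 4 high-scoring members outside that family, chosen for an exact match. The bases beside their motif differ.
Usp6nl/Celf2, chr2:6324653-6324694, minus strand: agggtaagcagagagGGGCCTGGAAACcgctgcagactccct
Atg10/Ssbp2, chr13:91510646-91510689, minus strand: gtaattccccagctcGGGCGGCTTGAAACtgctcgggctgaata
Tars/Npr3, chr15:11514165-11514206, plus strand: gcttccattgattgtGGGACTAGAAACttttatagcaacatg
Cadm1/Cadm1, chr9:47433919-47433962, plus strand: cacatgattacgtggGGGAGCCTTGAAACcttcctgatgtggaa
Of the 5 lowest-scoring members, 4 carried a mismatch.
Fam159b/Rgs7bp, chr13:105706893-105706936, minus strand: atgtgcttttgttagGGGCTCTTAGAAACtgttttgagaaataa
Ankrd7/Kcnd2, chr6:19891992-19892035, plus strand: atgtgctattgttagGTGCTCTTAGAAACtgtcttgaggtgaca
Dscam/Bace2, chr16:97457770-97457813, plus strand: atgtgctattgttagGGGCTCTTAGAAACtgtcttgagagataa
Asns/C1galt1, chr6:7694732-7694776, plus strand: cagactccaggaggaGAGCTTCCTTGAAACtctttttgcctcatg
St7/Wnt2, chr6:17773715-17773759, plus strand: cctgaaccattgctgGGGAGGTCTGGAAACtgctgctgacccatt
St7/Wnt2 alone among these 5 held an exact match, with the same word as the highest-scoring member of all.

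Each interval is named by the protein-coding genes whose TSSs lie nearest on its left and right, which says nothing of what it regulates. Its score in a sample is that of the highest peak it holds there, as given by the peak caller. The sources do not say on which scale it is, the lists carry no read counts, and the depth behind a score is therefore unknown.

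The scores of the 235 members ran over more than 10-fold in each sample. Replicate 1 had a median of 25.6 with scores from 2.67 to 362.4, and replicate 2 a median of 27.8 from 2.07 to 352.0. In clone B6, replicate 3 had a median of 23.6 from 3.93 to 362.7, and replicate 4 a median of 22.2 from 3.14 to 399.5. The samples ordered the members alike: Spearman's rho between pairs of samples was 0.776 to 0.834 over the 235 intervals, which share their peak calls and are not independent. For a single member the highest of its 4 scores was 1.99 times the lowest in the median, and up to 6.81 times. Scores of at least 10 in every sample, the minimum used in the study, were found for 162 members, and scores of at least 50 for 41. Merged widths had a median of 369 bp (216 to 1062 bp), and the stretch covered by all 4 samples a median of 242 bp.

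**Figure D1:**
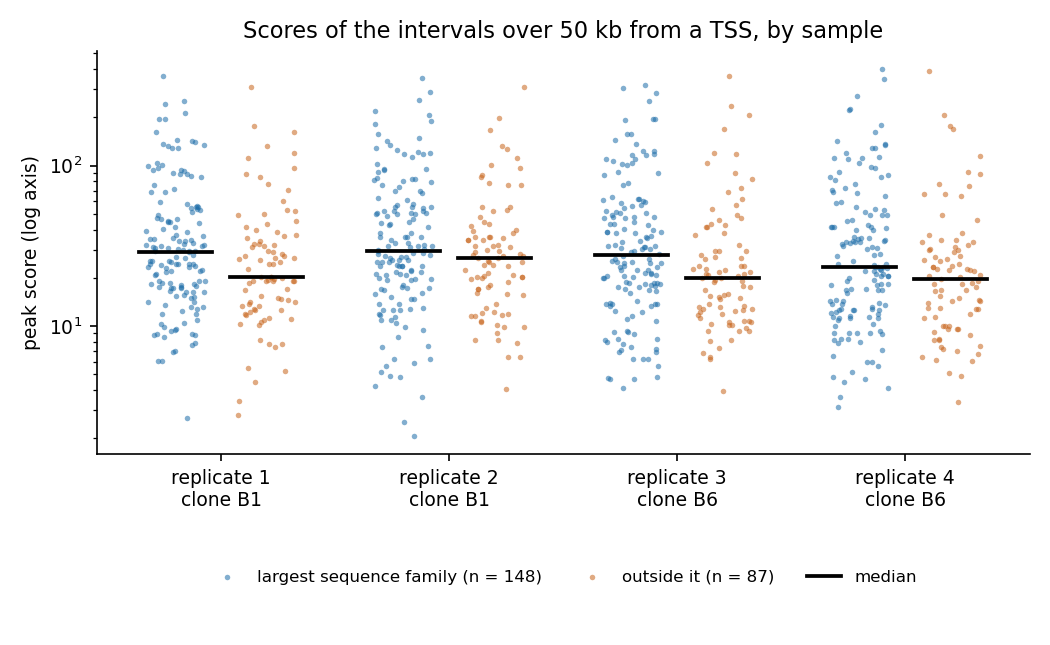
Score of each of the 235 members (points, log axis) in the 4 anti-GFP samples, split into the 148 of the largest sequence family and the 87 outside it, with medians as bars. The median of the family lies above the other in each sample, while the spread of single intervals covers more than 10-fold.

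The highest score was at the interval 1600021P15Rik/Hrasls on chromosome 16 (29012892 to 29013527), where the 4 samples gave 362.4, 352.0, 306.3 and 399.5, a mean of 355.1 ± 38.4 (SD, n = 4). It lies between genes, 83.4 kb upstream of 1600021P15Rik. Usp6nl/Celf2 on chromosome 2 (6324374 to 6324936) followed with 310.2, 309.1, 362.7 and 391.3, a mean of 343.3 ± 40.6 (SD, n = 4). It is in an intron of Usp6nl, which encodes a Rab GTPase-activating protein, and Celf2 on its other side encodes an RNA-binding protein. These leading intervals differed by less than their spread over samples. They also ranked 2 and 3 among all 900 shared intervals.

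Dctd/Odz3 on chromosome 8 (49263152 to 49263699) came next with 253.2, 257.2, 316.2 and 346.5. Odz3 encodes a teneurin, a transmembrane protein of neuronal wiring. Slc16a9/Fam13c on chromosome 10 (69822093 to 69822636) gave 213.9, 288.5, 285.2 and 271.7. The first was higher in clone B1 replicate 1 and in both samples of clone B6, and the second in replicate 2. Also among the 10 highest were Gm10000/Dicer1 (203.8 ± 24.9), B3galnt1/Rpl32-ps (205.4 ± 40.8), Chsy3/Gm4951 (189.3 ± 7.95), Opa1/Gm1968 (189.9 ± 19.8) and Atg10/Ssbp2 (178.3 ± 20.7; SD, n = 4 each), ordered by the mean of log10. Their ranges over the samples overlap.

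At the other end, Fam159b/Rgs7bp on chromosome 13 (105706739 to 105707013) had the lowest mean, 5.81 ± 1.38 (SD, n = 4), from scores of 6.03, 5.65, 7.45 and 4.10. St7/Wnt2, in an intron of St7, gave 8.96, 7.51, 4.70 and 4.48. Ankrd7/Kcnd2 varied more, with 14.1, 2.07, 9.36 and 5.68. Asns/C1galt1 gave 2.67 and 3.61 in clone B1 but 16.2 and 11.4 in clone B6. Dscam/Bace2 gave 7.66, 4.80, 5.66 and 8.37.

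The limit of 50 kb separates neighbouring values of distance. The 3 members just inside, all of the largest sequence family, were 3110043O21Rik/Lingo2 (50.22 kb, mean score 44.9 ± 10.04), Chmp2b/Vgll3 (50.27 kb, 87.0 ± 7.83) and Phkb/Phkb (50.41 kb, 26.1 ± 7.64). Just outside, and outside the family as well, lay Zfp600/Gm13138 (49.83 kb, 27.3 ± 7.26), Spag9/Tob1 (49.70 kb, 30.4 ± 6.50) and Wdfy2/Defb48 (49.21 kb, 12.4 ± 6.74; SD, n = 4 each).

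Sequence over 50 kb from a TSS makes up 52.22% of the 2556 Mb of known bases on the 20 chromosomes used, while the members make up 26.11% of the shared intervals (exact 95% binomial interval 23.27 to 29.11%, which covers counting error only). This comes to 17.6 members per 100 Mb of far sequence, against 54.5 shared intervals per 100 Mb of nearer sequence. Far peaks were as frequent in each list on its own: 390 of 1469 peaks in replicate 1 (26.6%), 469 of 1805 in replicate 2 (26.0%), 385 of 1428 in replicate 3 (27.0%) and 356 of 1265 in replicate 4 (28.1%). The mean share was 26.9 ± 0.915% (SD, n = 4). In these lists 60.3%, 50.3%, 61.0% and 66.0% of the far peaks belonged to a member. The share far from a TSS was much the same whether an interval had been called in 1 sample (26.97% of 812), in 2 (28.90% of 346), in 3 (28.07% of 285) or in all 4.

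Members thinned out with distance. The 107 members at 50 to 100 kb correspond to 28.8 per 100 Mb of sequence in that range, the 69 at 100 to 200 kb to 19.9, the 44 at 200 to 500 kb to 11.7 and the 15 beyond 500 kb to 6.27. The median distance was 114.6 kb. Median scores in replicates 1 to 4 were 26.2, 29.9, 23.8 and 22.3 at 50 to 100 kb and 27.2, 30.99, 24.6 and 24.3 at 100 to 200 kb. They were 25.4, 26.1, 25.7 and 17.7 at 200 to 500 kb and 24.3, 18.8, 13.9 and 11.2 for the 15 members beyond. The group at 100 to 200 kb was above that at 50 to 100 kb in each sample, and these differences were not tested.

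**Figure D2:**
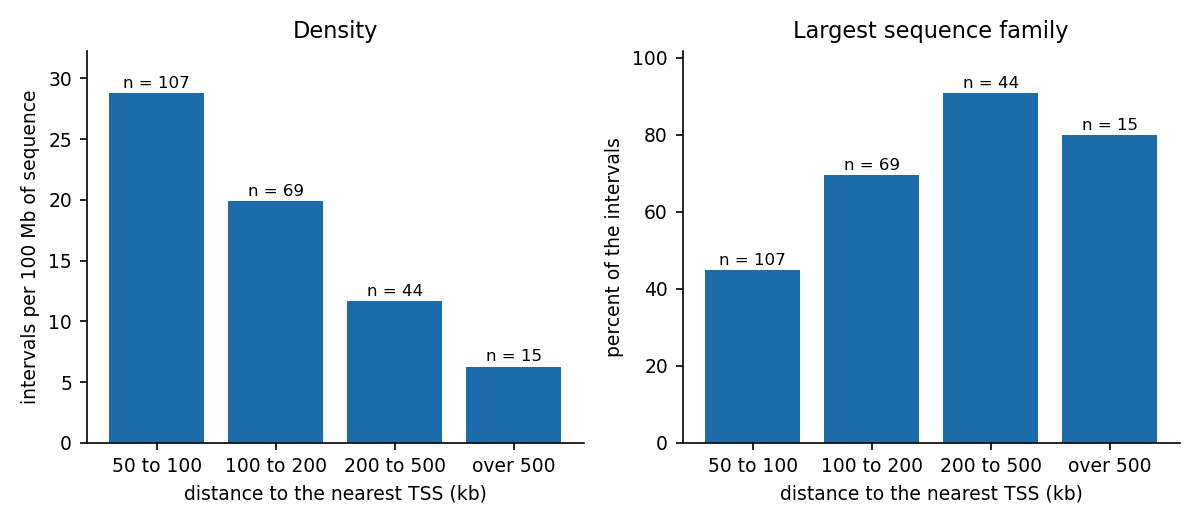
Left, members per 100 Mb of sequence at each range of distance from a protein-coding TSS. Right, the percent of those members in the largest sequence family. Density fell from 28.8 to 6.27 per 100 Mb, and the family made up 44.86% of the nearest group and 90.91% of that at 200 to 500 kb.

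The member farthest from a TSS was Celf4/Pik3c3, 1973 kb from Celf4, with scores of 13.7, 6.46, 17.4 and 8.24. Dsel/Cntnap5a on chromosome 1 (115855043 to 115855468) lay 1726 kb from Cntnap5a, a neurexin-related adhesion gene, and gave 24.3, 10.99, 11.1 and 3.6. D3Ertd751e/Pcdh10 on chromosome 3 (42749409 to 42749734), 1203 kb from D3Ertd751e, gave 18.5, 12.6, 13.9 and 11.2. Ankrd7/Kcnd2 lay 1076 kb from Ankrd7, and Cypt15/Gria3 on chromosome X (37853731 to 37854070) lay 900.4 kb from Gria3, a glutamate receptor subunit, with 24.4, 33.0, 22.5 and 20.7. The score of 33.0 was the highest of these 5 members in any sample.

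The scores of the members were slightly lower than those of the intervals 5 to 50 kb from a TSS. Median scores in replicates 1 to 4 were 25.6, 27.8, 23.6 and 22.2 for the members, 29.9, 31.3, 28.0 and 23.0 for the intervals at 5 to 50 kb, and 27.2, 29.8, 24.6 and 20.7 for those within 5 kb. Members lay below the middle group in 4 of 4 samples, with a mean difference of -0.05 ± 0.03 on the log10 scale (SD, n = 4; 0.886-fold) and a two-sided exact sign-flip permutation p = 0.125, the smallest that 4 samples allow. Against the intervals within 5 kb they lay lower in 3 of 4 samples, 0.976-fold, with an exact permutation p = 0.5. With TSSs of all transcripts in place of protein-coding ones this second difference changed sign.

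The largest family of similar sequence accounted for most of the members. Intervals were joined where BLAST+ aligned at least 100 bp at 70% identity or more. The largest family held 378 shared intervals: 148 of the 235 members (62.98%, exact 95% interval 56.46 to 69.17%), 179 of the 394 at 5 to 50 kb (45.43%) and 51 of the 271 within 5 kb (18.82%). Of the other members, 4 fell in small families and 83 aligned to no other shared interval. Single linkage joins sequences that need not resemble each other directly: at 200 bp and 80% identity the largest family held 102 members and the next 24. The families were not matched to annotated repeats and carry no names here. Among members, the family share rose from 44.86% at 50 to 100 kb to 69.57%, 90.91% and 80% in the ranges beyond.

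The member with most alignments lies in an intron of Fhit, a very long gene at a fragile site, and aligned to 219 shared intervals, 84 of them members, at a median identity of 76.3% (70.2 to 90.6%). Its 200 central bases are shown as an example of the family, with the motif matches in capitals.
Fhit/Fhit, chr14:11644153-11644352, minus strand: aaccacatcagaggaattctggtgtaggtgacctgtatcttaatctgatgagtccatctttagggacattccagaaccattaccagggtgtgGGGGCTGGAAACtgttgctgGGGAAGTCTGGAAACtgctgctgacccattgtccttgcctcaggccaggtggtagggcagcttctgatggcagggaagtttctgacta
The ends of its 2 matches are 23 bp apart.
The scores of this member were 31.6, 9.92, 47.7 and 16. Fhit also flanked 2 other members, 4930452B06Rik/Fhit with a mean of 67.6 ± 12.1 and a second intronic one with 20.8 ± 4.43 (SD, n = 4 each), and no other gene flanked 3.

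Members of the family scored above the rest in each sample. Their medians were 29.2, 29.6, 27.8 and 23.3 in replicates 1 to 4, against 20.1, 26.6, 19.9 and 19.7 for the 87 members outside. The difference was 0.11 ± 0.06 on the log10 scale (SD, n = 4; 1.28-fold, 4 of 4 samples), with a two-sided exact sign-flip permutation p = 0.125, again the smallest possible.

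The motif was found near the centre of most members. The study derived it from binding regions that include many of these intervals, so its presence describes them and is not independent. In the central 200 bp, 114 of 235 members (48.51%) held an exact match, where 0.104% of all 200 bp tiles of far sequence did. With up to 2 mismatches it was 211 members (89.79%, exact 95% interval 85.19 to 93.35%), against 6.83% of the tiles. The shares with up to 2 mismatches were 88.58% at 5 to 50 kb and 82.29% within 5 kb of a TSS. The match lay a median of 16.5 bp from the centre, and within 50 bp in 183 of the 211.

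In the family, 84 of 148 members held an exact match (56.76%) and 140 a match with up to 2 mismatches (94.59%). Outside it the figures were 30 of 87 (34.48%) and 71 (81.61%). The spacer between GGG and CT also differed. Exact matches in the family had 4 bases there in 58 of 84 cases and 1 base in 18, while outside 3 bases were commonest (14 of 30), then 4 (9). The commonest exact words, counted outside 1 chromosome, were GGGAGGTCTGGAAAC in 23 members and GGGAAGTCTGGAAAC in 15, all in the family. Outside it, GGGAGCCTTGAAAC was found in 4 members and in none of the family.

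Many family members held the motif more than once. In 85 of the 148 (57.43%) the central 200 bp had 2 or more matches, against 18 of 87 outside (20.69%). Among the 109 gaps between neighbouring matches on the same strand in the family, 52 were of exactly 23 bp and 17 of 35 bp. Within the family, members whose best match was exact had median scores of 39.0, 50.1, 43.3 and 39.6, and those with 1 mismatch 18.1, 20.9, 20.7 and 16.9. Outside it, the same groups had 24.4, 26.3, 21.1 and 22.2 against 22.2, 29.3, 18.9 and 17.9, so that replicate 2 had the opposite order there. Scores did not fall steadily with a poorer match in the central 200 bp. The 9 family members with 2 mismatches had medians of 23.3, 23.6, 19.8 and 12.9. The 8 without a match in that window had 28.6, 42.6, 24.5 and 19.45, above those with 1 mismatch in each sample. Outside the family, the 16 without a match in the window had 19.6, 29.0, 21.6 and 24.55, above those with 1 mismatch only in replicates 3 and 4. These groups are not free of the motif. Most of the 8 held a match with up to 2 mismatches elsewhere in their interval, as did some of the 16. Examples in the family are 4930467E23Rik/Gm15319 and AU021034/Tnfsf11, each with 1 mismatch.

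No match with up to 2 mismatches was found in the central 200 bp of 24 members. The highest-scoring of them, Gm10000/Dicer1 on chromosome 12 (105882832 to 105883451), ranked 6 of all members with 175.7, 197.1, 235.6 and 206.8. It lies between genes, 75.7 kb downstream of the TSS of Dicer1, which encodes the ribonuclease that makes microRNAs. Its whole interval has no GAAAC on either strand. The 200 central bases are a tandem repeat, given here from the plus strand.
Gm10000/Dicer1, chr12:105883042-105883241: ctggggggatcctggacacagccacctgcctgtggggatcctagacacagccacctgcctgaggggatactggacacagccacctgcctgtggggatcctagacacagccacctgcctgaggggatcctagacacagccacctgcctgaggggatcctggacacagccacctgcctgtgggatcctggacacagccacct
The sequence matched itself at 84.8% of positions when moved by 29 bp. It held the motif 7 times in a form with GACAC in place of GAAAC (A3C, counted from the G of GAAAC), with GGG, the spacer and CT otherwise in place. This form was looked for after the sequence had been seen. It was in 1 of the 24 members without a match, this one, and in none of the 211 with a match. Among the 24, C130026L21Rik/Cryba4 also scored high (150.9 ± 21.0, SD, n = 4) and had an exact match elsewhere in its interval. Zfp36l2/Thada (86.0 ± 19.2, SD, n = 4) had no GAAAC with room for the rest of the motif anywhere in its interval.

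Copies were sought in the genome with the Fhit member alone, which aligned to 84 of the other members, so many bound members of the family are not among them. The search gave 797 copies, of which 415 (52.07%) lay over 50 kb from a TSS, close to the share of all bases. Of the far copies so found, 86 (20.7%) held a peak of all 4 samples, 71 a peak of 1 to 3 samples and 258 no peak. By motif, 71 of 235 far copies with an exact match held a peak of all 4 samples (30.2%, exact 95% interval 24.4 to 36.5%), 12 of 105 with 1 mismatch (11.4%), 2 of 12 with 2 mismatches (16.7%, 2.09 to 48.4%) and 1 of 63 with at least 3 mismatches or no GAAAC (1.59%). Of the 235 with an exact match, 109 had no peak in any sample. The aligned member was picked for its alignments to bound intervals, so the copies were chosen through the same peak calls and their share with peaks is not independent of that choice. How reads from similar copies were placed was not tested.

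Copies with an exact motif were also counted by their distance from a TSS. The share with a peak of all 4 samples was 52.9% (35.1 to 70.2%) within 5 kb, 49.3% (42.1 to 56.4%) at 5 to 50 kb, 29.2% (18.6 to 41.8%) at 50 to 100 kb, 40.0% (28.0 to 52.9%) at 100 to 200 kb, 29.7% (19.7 to 41.5%) at 200 to 500 kb and 12.9% (3.63 to 29.8%) beyond. These intervals cover counting error only, and the order of the shares was not tested. Exact motif loci outside the copies lay in a shared interval in 3.90% of cases within 5 kb, 1.31% at 5 to 50 kb, 1.18% at 50 to 100 kb, 0.508% at 100 to 200 kb, 0.222% at 200 to 500 kb and 0.217% beyond. In all, 44 of 7052 such far loci lay in a member (0.624%).

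**Figure D3:**
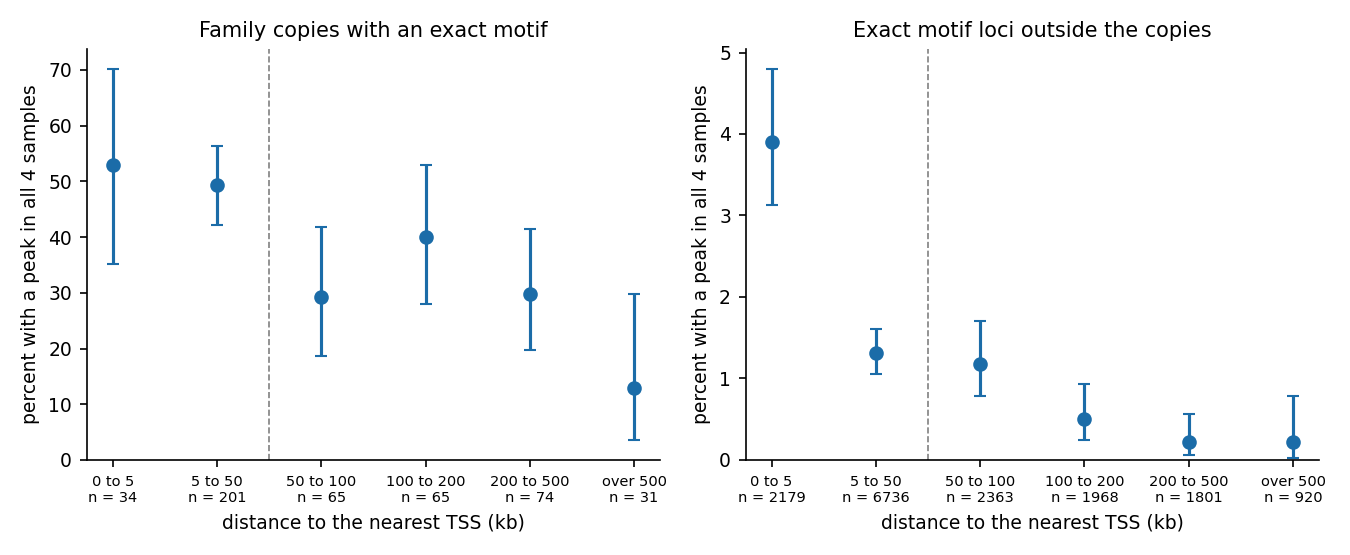
Percent of genomic sites with a peak in all 4 samples by distance from a protein-coding TSS, with exact 95% binomial intervals that cover counting error only. Left, family copies with an exact motif. Right, loci with an exact motif outside the copies, on a smaller scale. The dashed line marks 50 kb, beyond which the points run from 12.9 to 40.0% on the left and from 0.217 to 1.18% on the right. The copies were found through a bound member, so the panels are not to be set against each other.

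G and C were commoner in the members than in far sequence at large, as they were in the shared intervals at 5 to 50 kb. The central 200 bp had 49.3 ± 5.07% G and C (SD over 235 intervals), against 40.2% in tiles of far sequence, 50.8 ± 5.23% in the 394 intervals at 5 to 50 kb and 54.2 ± 7.90% in the 271 intervals within 5 kb of a TSS. CpG dinucleotides numbered 1.04 per 100 bases, against 0.678 in the far tiles, 1.23 at 5 to 50 kb and 3.28 within 5 kb. The family had 0.662 and the members outside it 1.70.

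By the gene annotation the members were placed like far sequence in general. Introns of protein-coding genes held 58 (24.68%, where 24.4% of far bases are intronic), sequence between genes 167 (71.06% against 72.6%), non-coding genes 9 (3.83% against 2.45%) and exons 1. The introns were those of 55 genes, with 2 members each in Asap2, Etl4 and Fhit. Of the members, 120 lay upstream of the nearest protein-coding TSS and 115 downstream. Within 5 kb of 11 members was a TSS of another kind, 5 of them of long intergenic non-coding RNAs and 1 of a non-coding transcript of Jak1.

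The density of members differed between chromosomes, which was not tested. Chromosome 10 held 21, or 30.9 per 100 Mb of far sequence, and chromosome 1 held 26, or 23.3. Chromosome 7 held 2 (3.67 per 100 Mb), chromosome 19 held 1 (4.197) and chromosome X held 3 (3.13). In proportion to far sequence, chromosome X would have held 16.9 and chromosome 10 would have held 11.99.

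**Figure D4:**
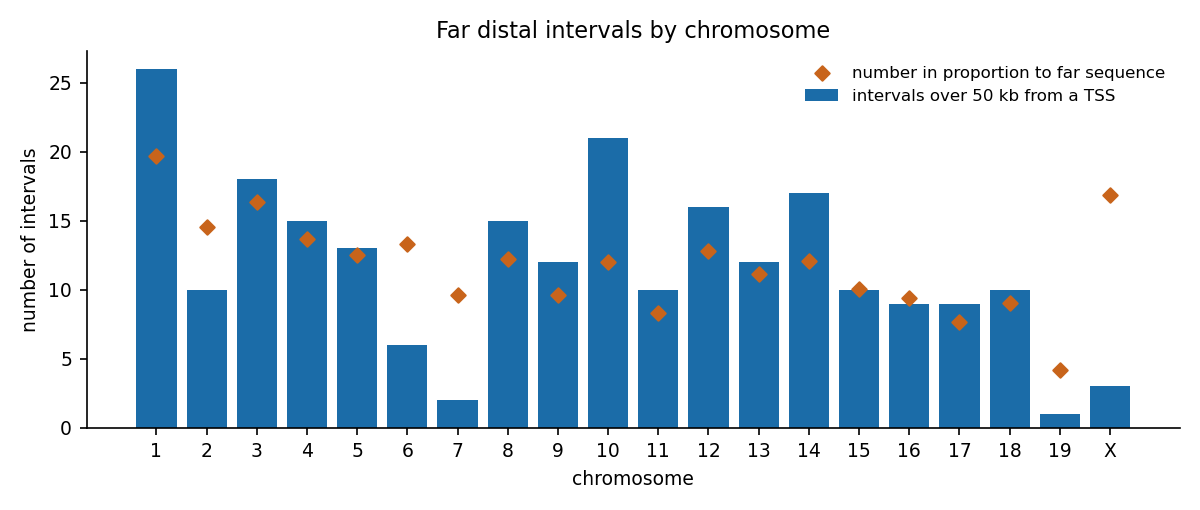
Members on each chromosome (bars) and the number in proportion to its sequence over 50 kb from a TSS (diamonds). Chromosome 10 stands above its diamond with 21 against 11.99, and chromosome X below with 3 against 16.9.

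Few members lay close to each other. Neighbours on a chromosome were a median of 5.74 Mb apart, and 6 of the 215 neighbouring pairs were closer than 100 kb. With the rule applied to 3 samples the count was 9 without replicate 1 and 11 without replicate 4. Both intervals of the pair in Etl4, 0.894 kb apart, lie in that gene, and gave 75.95, 50, 60.8 and 41.6 against 17.1, 25.2, 17.9 and 22.3. Next to the high Slc16a9/Fam13c interval, a second one at 5.40 kb gave only 32.6, 18.1, 20.7 and 14.9. The pair at Asap2/Itgb1bp1 was 8.86 kb apart, that at Vmn1r3/Tmem68 29.8 kb and that at Opa1/Gm1968 72.9 kb. At Opa1/Gm1968 the first interval exceeded the second in each sample, with 196.1, 208.0, 193.8 and 161.6 against 68.1, 46.4, 38.3 and 34.6. At Vmn1r3/Tmem68 the second was higher, with 143.0, 148.2, 115.7 and 111.0 against 29.7, 55.2, 25.6 and 27.5. The pair at Fcgr1/BC107364, 40.6 kb apart, shared 374 bp at 100% identity and gave similar scores of 76.9, 55.2, 68.1 and 76.6 against 39.5, 76.3, 72.2 and 66.6. Reads cannot be told apart over identical sequence, so these scores are uncertain.

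Scores were compared between the clones, in a test too small to show either a difference or likeness. The median of the members was 25.6 and 27.8 in clone B1 and 23.6 and 22.2 in clone B6, 1.17-fold higher in B1 (two-sided exact permutation p = 0.333, the smallest that 2 against 2 samples allow). After division by the median of all shared intervals in each sample the difference changed sign. Both B1 samples scored above both B6 samples in 63 members (26.8%), against 30.3% of all shared intervals. The opposite held for 32 members (13.6%), against 12.8%. With that division the counts were 37 (15.7%, against 16.4% of all shared intervals) and 65 (27.7%, against 25.4%), so the split between clones depends on the scaling.

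**Figure D5:**
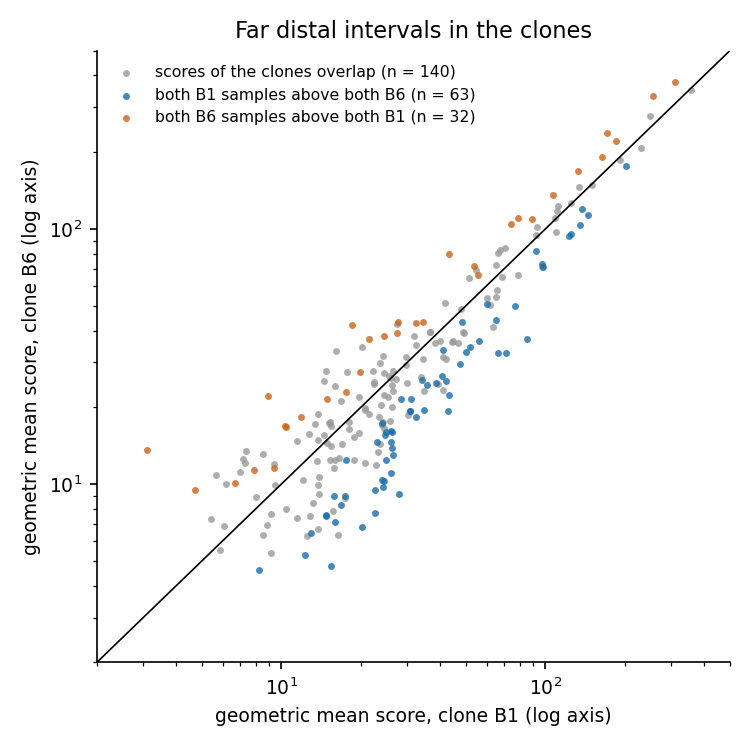
Geometric mean score of each member in clone B1 and clone B6 (log axes), with the line of equal scores. Points lie along the line, with 63 members higher in both B1 samples, 32 higher in both B6 samples and 140 whose scores overlap.

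Among members whose clones do not overlap in score, the largest difference towards B6 was at Asns/C1galt1 (0.229-fold in B1 relative to B6). That ratio rests on scores of 2.67 and 3.61 in B1, where the lowest of any member were 2.67 and 2.07. Next was 5830454E08Rik/Ctnnb1 on chromosome 9 (120764731 to 120765015), 73.5 kb upstream of the gene of beta-catenin. Its scores were 7.44 and 10.7 in B1 and 19.0 and 25.6 in B6. Speer2/Gbe1 gave 16.3 and 21.0 against 42.9 and 41.4, Fam123a/Spata13 3.44 and 6.46 against 10.2 and 8.80, and Rpl17-ps3/Rps29 34.0 and 54.5 against 77.8 and 81.7. Towards B1, Gm17582/Gm11353 on chromosome 13 (26096913 to 26097341) gave 18.3 and 13.0 against 4.79 and 4.80, a 3.22-fold difference. 4933426M11Rik/Srsf5 gave 24.5 and 32.1 against 10.2 and 8.24, and Pcdh17/Diap3 20.1 and 20.5 against 6.44 and 7.17. Rab11fip4/Utp6 was 2.49-fold higher in B1. These members were picked for their difference, so it is not tested.

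The members had 426 distinct flanking genes in 226 pairs. Of the 7458 protein-coding genes that border sequence over 50 kb from a TSS, 5.7% flanked a member, which is the background for the lists that follow.

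Of 19 pluripotency genes that border far sequence, 3 flanked a member: Sox2, Nr5a2 and Zfp281, each a DNA-binding regulator of ESCs. The interval Sox2/Atp11b on chromosome 3 (35075876 to 35076178), 527 kb from the TSS of Sox2, gave 24.5, 23.6, 8.37 and 12.9. Zfp281 had a member on each side. Kif14/Zfp281 on chromosome 1 (138466895 to 138467379), 54.3 kb away, gave 52.6, 47.7, 41.3 and 26.1, and Zfp281/Nr5a2 (138574743 to 138575111), 53.5 kb away, gave 33.1, 31.7, 19.9 and 16.9. A second interval beside Nr5a2, a nuclear receptor gene, lay 637.1 kb from it and gave 8.58, 28.8, 6.93 and 8.93.

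Of 20 genes of Nodal, TGF-beta and BMP signalling, 3 flanked a member. Bmpr1b, a type I BMP receptor, held one in an intron 82.1 kb from its TSS (18.5, 12.1, 23.8 and 19.7). Tgfbr2, the type II TGF-beta receptor, had one at 151.9 kb (44.0, 27.1, 31.1 and 30.7). Smad2, which relays Nodal and TGF-beta signals, had one on each side, at 52.3 kb (31.5, 55.6, 53.8 and 49.0) and at 476.8 kb (120.0, 127.0, 118.0 and 75.2). The latter was the highest-scoring of the members beside these signalling genes in each sample. Of 41 developmental transcription factors, only Meis2 flanked a member, with 6.97, 11.97, 9.17 and 3.14 at 152.6 kb from its TSS, in an intron of BC052040.

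Neuronal adhesion and axon guidance genes, many of them very long and set in gene-poor regions, had the highest share of the 4 lists, 18 of 84 (21.4%). The length of far sequence beside each gene was not taken into account. Tmem132d, which encodes a transmembrane protein, flanked a member in an intron of its neighbour Glt1d1, with 139.5, 128.3, 157.8 and 134.2, at 754.2 kb from the TSS of Tmem132d. Unc5d, a netrin receptor gene, had members on both sides, with 71.4, 82.2, 60.5 and 41.4 at 261.5 kb and 100.8, 120.1, 103.0 and 91.7 at 1439 kb. Cdh18, a cadherin gene, held one in an intron with 132.8, 117.6, 106.6 and 85.3. Pcdh15, a protocadherin gene, held one with 46.6, 57.5, 35.6 and 33.3, and Csmd3 one with 30.6, 52.0, 33.2 and 39.7. Cdh12, Cntnap5a, Dcc, Dscam, Epha4, Epha5, Lrrtm3, Pcdh10, Pcdh17, Pcdh7, Slitrk3 and Unc5c flanked members with mean scores from 6.62 to 38.4, and Odz3 flanked the high Dctd/Odz3 interval. The members beside these genes were in the largest family except those beside Epha4 and Unc5c and 1 of the 2 beside Pcdh17.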

How the data were processed

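Reads were mapped by the authors with Stampy (mm9), and MACS2 was used to call peaks of each anti-GFP sample over the mouse IgG control; versions are not given in the sources used here. The deposited lists give the position of each peak and a score, whose scale is not named and which is not normalized between samples. The lists hold no read counts, so depth is unknown.

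Peaks on the 20 chromosomes were merged where they overlapped by at least 1 bp. Distances were measured from interval centres to TSSs of protein-coding transcripts (GENCODE vM1 on NCBIM37, the build of mm9). Positions are counted from 1. Families were built with BLAST+ 2.17.0 (E-value 1e-10, at least 100 bp at 70% identity), and hits of the most connected member less than 100 bp apart were joined into genomic copies. Samples were compared by median log10 scores with two-sided exact permutation tests; binomial intervals are exact (95%). Intervals are not replicates, and no test was made over them.

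The members and lists were chosen with earlier results of these data known, and the gene lists were written from general knowledge. Named intervals are the 10 highest, 5 lowest and 5 farthest, the 3 on either side of 50 kb, pairs closer than 100 kb and the 5 with the largest difference towards each clone among those whose clones do not overlap in score. Named genes flank these, belong to a list or flank at least 3 members. A few intervals that meet this rule are not reported here. The members shown outside the largest family by sequence, and those without a motif match, were named after their values were seen. Alternatives covered the minimum score, the distance limit, the TSS set, the overlap, the motif and family settings, scaling between samples and leaving out each replicate.

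When tested on simulated data, 500 of 500 planted shared intervals and 400 of 400 planted motifs were found again. Python 3.11.15, numpy 2.4.6, scipy 1.17.1, pysam 0.24.0, samtools 1.23.1 and matplotlib 3.10.9 were used. Mitochondrial and unplaced peaks were left out of the members.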

Additional observations from a re-analysis of the deposited data

Results flagged for a closer look

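Of 75 groups of 4 values tested, which were the scores of the named intervals and counts or medians per sample, 3 had 1 sample far from the rest, its gap to the nearest divided by the whole range exceeding Dixon's 95% limit for 4 values. About 1 in 20 groups of 4 passes this limit by chance, which would give 3.8 of 75. At Nr5a2/A130050O07Rik the ratio was 0.908, because replicate 2 gave 28.8 and the others 6.93 to 8.93. At Vmn1r3/Tmem68 the ratio was 0.861, again from replicate 2, with 55.2 against 25.6 to 29.7. At Slitrk3/Bche the ratio was 0.843, where replicate 4 gave 11.5 and the others 28.7 to 31.9. Outside the chromosomes used, replicate 3 listed 15 peaks on mitochondrial DNA, a sequence with no members, whose own origin was not tested.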

How the results depend on the processing

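The count of 235 members moved to 98 with a score of at least 20 in every sample, to 128 with a limit of 100 kb and to 142 with TSSs of all transcripts; their share of shared intervals moved from 26.1% to 38.0% at 30 kb, 14.2% at 100 kb and 15.8% with all TSSs. Without each replicate in turn there were 243 to 271 members (25.8 to 26.9%). The difference in score from intervals within 5 kb was 0.0017 on the log10 scale with all TSSs, against -0.01, and that from 5 to 50 kb kept its sign in each setting tried. The clone difference became -0.0163 on the log10 scale when scaled, against 0.0664. Members with both B1 samples higher numbered 38 at 100 kb, 38 with all TSSs and 37 when scaled, and those with both B6 samples higher 17, 19 and 65. The motif share became 48.5% for exact matches, 80.4% and 93.6% for up to 1 and 3 mismatches and 94.5% over whole intervals. The family share became 78.1% at 100 kb and 43.4% at 200 bp and 80% identity, and the intronic share 18.8% at 100 kb. Pairs closer than 500 kb numbered 14, against 6 closer than 100 kb, and without each replicate in turn 6 to 11 pairs were closer than 100 kb (11 without replicate 4). With a score of at least 10 the developmental transcription factors beside a member numbered 0, against 1, and without each replicate in turn 1 to 2 (2 without replicate 1 or replicate 4). The cause of these changes was not tested beyond the smaller or larger set of intervals each setting leaves. Chosen after seeing the data were the settings for peaks per sample, gene lists and family scores, a score of at least 10 for pairs, and leaving out replicates for pairs and for the motif, family and intron shares.

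No paired analysis was possible because the mouse IgG samples, which share replicate numbers with the anti-GFP samples, have no peak lists analysed here. The smallest p of the score tests was 0.125 for 4 samples and 0.333 for 2 against 2, so these tests say nothing of stability. Depth is unknown, the motif was derived from overlapping regions, and the placing of reads among similar copies was not tested.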
